A study of Caenorhabditis elegans with 18 samples.

Results

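Exons that can be left out of a messenger RNA without changing the reading frame were followed across embryos of 6 Caenorhabditis elegans strains. The deposited lists hold 5219 events in which 1 exon is either included or skipped, counted once for each position, strand and splicing pattern over all 18 libraries. The members are the 2633 events whose exon length is divisible by 3. The other 2586 events shift the frame. The 2633 in-frame events comprise 2518 distinct exons in 1840 host genes, and 8 events lie at positions with no annotated gene. They are part of a table of 31706 splicing events of all kinds. The measure throughout is the inclusion share, which is the FPKM of the transcripts with the exon divided by the FPKM of the transcripts with and without it. FPKM are fragments per kilobase of transcript, scaled to the mapped fragments of the library.

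RNA was sequenced from eggs that were obtained by bleaching synchronized adults grown at 20 °C, with 3 libraries per strain. The mutant strains were uaf-1(n4588), the double mutants uaf-1(n4588); rbm-5(n5119) and uaf-1(n4588); rbm-5(n5132), and the single mutants rbm-5(n5119) and rbm-5(n5132). They were set against the wild-type strain N2. Nothing in the labels shows that libraries of 1 strain come from different cultures, so every p-value reflects the spread among these libraries alone, which may be technical. The study concerns the part that RBM-5 plays in alternative splicing by U2AF.

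An internal exon is skipped when the splice sites on either side of it are passed over and the outer ones are joined. If its length is a whole number of codons, the protein downstream is unchanged and both forms differ by one internal stretch of amino acids; otherwise the frame shifts and a premature stop often follows, which can lead to decay of the RNA. U2AF recognises the 3′ splice site: its large subunit, encoded by uaf-1, binds the pyrimidine-rich tract, and its small subunit binds the AG at the intron end. RBM-5 is the worm homologue of human RBM5, a nuclear RNA-binding protein known in human cells for changing the use of alternative exons.

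The labelled stage was checked with marker genes. Of 10 maternal and early embryonic markers 6 to 10 were above 0 in each library, with summed levels of 433 to 2705 FPKM, and of 10 zygotic lineage factors 8 to 9 were above 0, with 253 to 511 FPKM. Late embryonic differentiation markers were also present, with 4 to 6 of 7 above 0 and 244 to 1013 FPKM. Markers of larvae and adults summed to 0.112 to 3.77 FPKM and sperm markers to 0 to 1.12 FPKM. Of the 7 sperm markers only 3 were listed in any library. The msp-3, msp-19, msp-77 and msp-142 genes had no value, so the sperm sum does not cover them. A marker without an entry of its own in a library was not counted as above 0 and adds nothing to the sum, so the ranges also reflect missing entries. Levels of single markers differed between libraries of 1 strain. The maternal gene pos-1 was at 151, 924 and 366 FPKM in wild type. The late marker act-5 was at 215, 134 and 35.8 FPKM in rbm-5(n5119). Whether the mix of embryo stages affects the shares was not tested. The 6 libraries numbered replicate 1 stood apart: in them 21.3% to 43.8% of the summed FPKM of transcript starts fell on the 10 highest starts, against 7.57% to 11.8% in the other libraries. Between 26.7% and 33.7% of the entries of a library were listed at exactly 0, which can be a failed estimate, so values of 0 are given as listed. Calls that change without the replicate 1 libraries are given with and without them.

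Skipped exons found in every library mostly kept the frame, and those found in few libraries mostly did not. Of the 883 skipped exons listed in all 18 libraries, 705 (79.8%) were in frame. The percentage was 54.3% for exons listed in 12 to 17 libraries, 50.7% for 6 to 11, 46.9% for 2 to 5 and 41.6% (1018 of 2447) for exons listed in a single library. For comparison, 39.6% of 84351 annotated internal exons that are wholly coding have a length divisible by 3. Exons listed once were thus close to the annotated background in this respect, while those listed throughout were far from it. The same gradient was seen in the annotation: both the included and the skipped form were annotated for 90.4% of the in-frame exons listed in all 18 libraries, and for 3.14% of those listed in a single library. No test was made of these shares, because exons are not replicates of a condition.

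**Figure D1:**
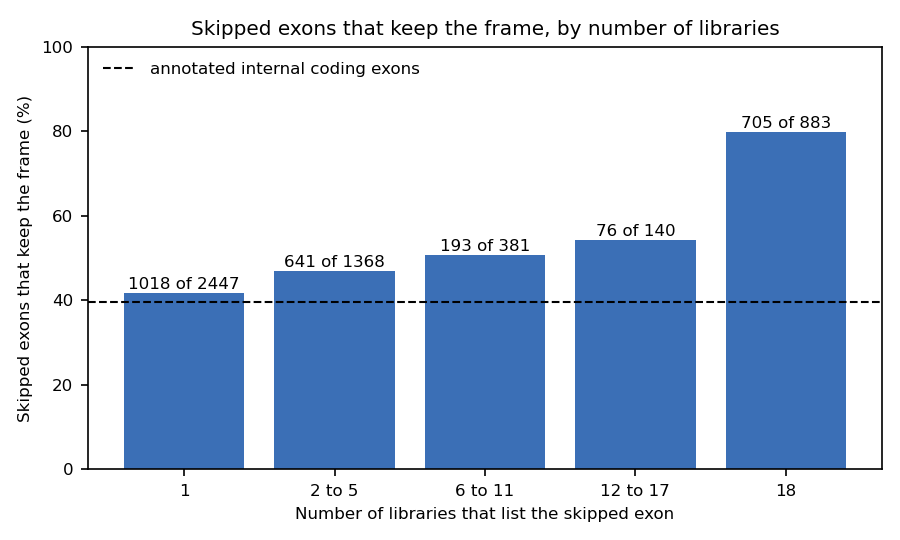
Percentage of skipped exons whose length is divisible by 3 (y axis) by the number of libraries that list the event (x axis), with the counts over each bar. The dashed line marks annotated internal coding exons at 39.6%; the bar for all 18 libraries reaches 79.8%.

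Most in-frame skipped exons were protein coding and short. By the Ensembl annotation (release 115 for this assembly), 2066 exons (78.5%) were wholly coding, 248 were coding in part and 319 held no coding sequence. Their median length was 120 bases (quartiles 78 and 189), and 102 bases for those listed in all 18 libraries. Microexons of 27 bases or less, which add at most 9 codons, made up 73 of the in-frame events, and 55 of these were listed in every library. Among frame-shifting events there were 16 such exons, of which 1 was listed in every library. The introns before and after an in-frame exon had median lengths of 280 and 297 bases. Of the wholly coding exons, 1186 began at the first base of a codon, 364 had phase 1 and 516 had phase 2.

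A few genes held many of these exons. One member was found in 1390 genes, 2 in 298, 3 to 4 in 115 and 5 or more in 37. The genes with most were daf-42 (16 events, 11 of them listed in all 18 libraries), F40F8.5 (15, of which 14) and F49E2.5 (13, of which 9). Next came unc-52, the perlecan of the muscle basement membrane, with 12 events, then fbn-1, a fibrillin-like matrix protein, and unc-16, a scaffold of kinesin transport, with 11 each. Events of 1 gene can share a skipped form and are then not independent of one another.

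A library listed 937 to 1140 in-frame skipped exons, and between 63.5% and 69.2% of its skipped exons were in frame. Libraries with uaf-1(n4588) listed 1008 to 1140 of them (median 1031), against 937 to 1057 (median 972) in libraries without it. These ranges overlap. Frame-shifting exons were listed 508 to 613 times with uaf-1(n4588), against 416 to 527 times without it. In 73 to 107 in-frame exons per library both forms were listed at 0, and no share was computed there. The median share over the in-frame exons of a library lay between 0.478 and 0.529, against 0.592 to 0.667 for frame-shifting exons.

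For 492 in-frame exons a share could be computed in all 18 libraries. The median of their mean share was 0.320, against 0.742 for 123 frame-shifting exons. Mostly skipped exons (mean share under 0.1) numbered 136, or 27.6%, mostly included ones (over 0.9) 93, or 18.9%, and 263, or 53.5%, lay between. In 45 exons the share was 1 in every library and in 38 it was 0 in every library. The share moved by less than 0.2 over all 18 libraries in 107 exons and by more than 0.9 in 35, so single libraries can differ widely. The median standard deviation between the 3 libraries of a strain was 0.0566 to 0.0860 (n = 492 exons).

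Short in-frame exons were included less. The median of the mean share was 0.147 for exons of 27 bases or less (n = 46) and 0.164 for 28 to 60 bases (n = 116). It was 0.311 for 61 to 120 bases (n = 135), 0.598 for 121 to 200 bases (n = 115) and 0.677 for longer ones (n = 80). Frame-shifting exons also had larger shares with length, and at each length with at least 10 of them their median was higher than that of the in-frame exons. No test was made of this gradient. Both forms of an event are estimates from assembled transcripts, and a short exon changes the transcript little, so how far the estimate itself depends on exon length was not tested.

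**Figure D2:**
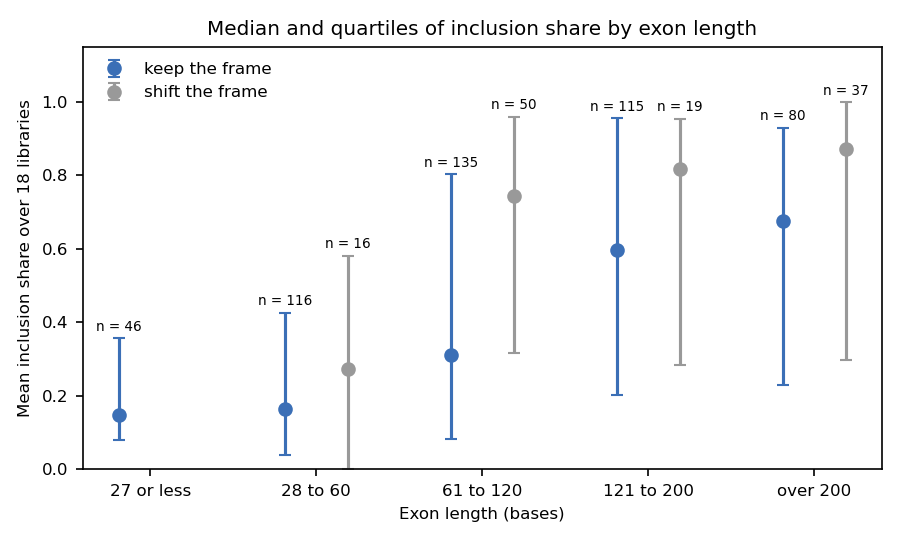
Mean inclusion share over 18 libraries (y axis, 0 to 1) by exon length in bases (x axis) for exons that keep the frame (blue, left of each pair) and exons that shift it (grey); points are medians, bars run from the lower to the upper quartile, n is the number of exons, and classes with fewer than 10 exons are left out. The median of the in-frame exons is 0.147 in the shortest class and 0.677 in the longest.

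The order of exons by share was much the same in every strain. Over the 492 exons, Spearman's rho between 2 libraries of the same strain was 0.793 to 0.871 (median 0.841), and between libraries of different strains 0.763 to 0.898 (median 0.833). These pairs share the exons, the annotation and the mapping, and the values are descriptions. Exons near an even share included one of 117 bases in alp-1, which encodes a muscle protein of the ALP and Enigma family. Its share was 0.424, 0.408 and 0.288 in uaf-1(n4588) and 0.457, 0.390 and 0.479 in wild type. A 36-base exon of unc-80, an auxiliary subunit of the NALCN sodium leak channel, had shares of 0.400, 0.377 and 0.50 in uaf-1(n4588) and 0.550, 0.171 and 0.248 in wild type. In both exons the libraries of these strains overlapped. A 9-base exon of unc-13, a priming factor for synaptic vesicles, behaved likewise, at 0.420, 0.400 and 0.451 in uaf-1(n4588) and 0.431, 0.659 and 0.521 in wild type.

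Few of these exons were called as changed with uaf-1(n4588), and the calls went in both directions. To ask which exons moved with uaf-1(n4588) whatever the rbm-5 genotype, the difference between each strain with uaf-1(n4588) and its counterpart without it was averaged over wild type, rbm-5(n5119) and rbm-5(n5132). The test was limma's moderated test on log2((FPKM with exon + 1) / (FPKM without exon + 1)), fitted to all splicing events, with Benjamini-Hochberg adjustment over all events tested and a call at an adjusted p under 0.05. A member was tested where at least 2 libraries of each strain had a value and both forms together averaged at least 1 FPKM, which held for 585 of the 2633. Of these 13 were called, 5 with a higher and 8 with a lower log2 ratio in uaf-1(n4588). In 1 of the 5, that of pcyt-2.1, the share was 0 in every library and the ratio moved with the level alone. Over all 2371 events tested the percentage called was 2.19 (1.18 higher and 1.01 lower), and 3 of 164 frame-shifting exons were called, so the in-frame exons were called about as often as splicing events in general. At an unadjusted p under 0.05 there were 68 in-frame exons.

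All 13 called exons were wholly coding with both forms annotated, as were 534 and 508 of the 585 tested for each of these features. Of the 13, 5 were 60 bases long or less, against 31.97% of those tested. In the plain shares, the 9 libraries with uaf-1(n4588) did not overlap the 9 without it in 5 in-frame exons (1 higher, 4 lower), which was 0.855% of those tested, against 0.886% of all events. These 5 exons were both let-653 exons and those of sao-1, F49E2.5 and C18B2.5, and each of them was also called.

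**Figure D3:**
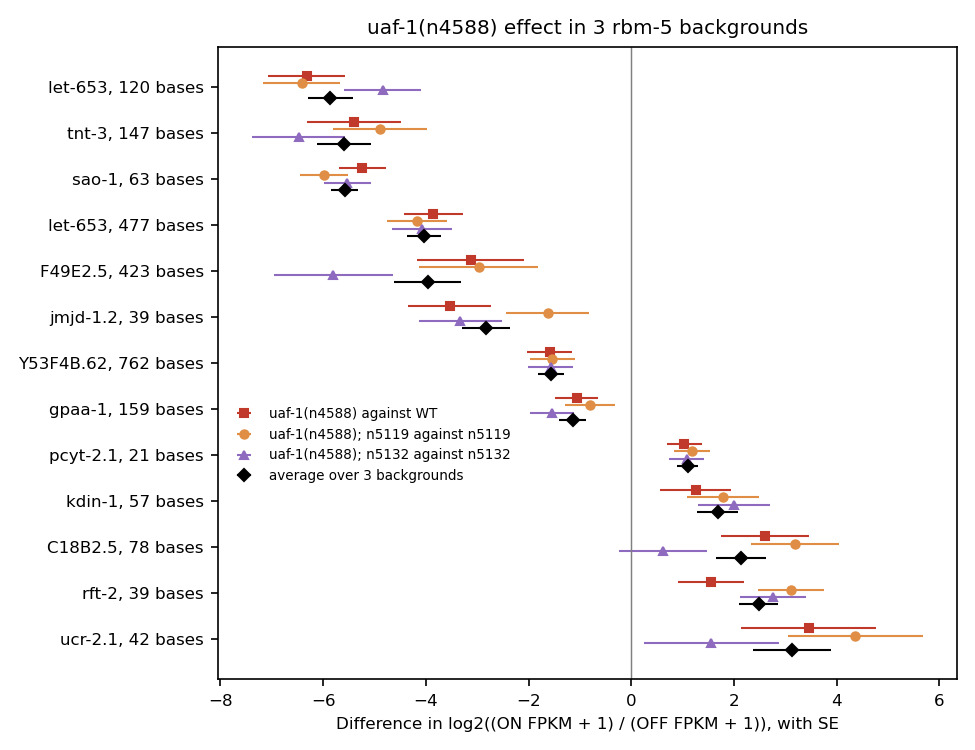
Difference in log2((FPKM with exon + 1) / (FPKM without exon + 1)) between strains with and without uaf-1(n4588) (x axis) for the 13 called exons (y axis), in each of 3 rbm-5 backgrounds and averaged; bars are standard errors. The averages run from -5.86 for the 120-base let-653 exon to 3.13 for ucr-2.1.

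The most uniform loss was that of a 63-base exon of sao-1, at bases 13964759 to 13964821 of chromosome V on the plus strand (assembly WBcel235). The gene is named as a suppressor of aph-1 in Notch signalling, and the exon codes for 21 amino acids. The form with the exon was listed at 0 in all 9 libraries with uaf-1(n4588), so the share was 0 in each. In libraries without the mutation the share was 0.318, 0.386 and 0.329 in rbm-5(n5119), 0.413, 0.323 and 0.173 in rbm-5(n5132), and 0.248, 0.349 and 0.402 in wild type. The mutant libraries were thus all below every other library. The skipped form was present throughout, at 44.1 to 137 FPKM (median 109.7) with uaf-1(n4588) and 63.99 to 84.8 FPKM (median 74.5) without it. Inclusion fell by 5.58 on the log2 scale (SE 0.270, adjusted p = 1.32e-08 by limma), and the summed level of both forms did not pass the test (log2 difference -0.13, adjusted p = 0.856).

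In let-653, which encodes a secreted ZP-domain protein of the apical matrix of the excretory duct, 2 members start at the same base of chromosome IV (11888697, plus strand) and share 1 skipped form. The shorter exon ends at base 11888816 and adds 40 amino acids. The longer ends at base 11889173 and adds 159. The share of the short exon was 0, 0 and 0 in uaf-1(n4588), 0, 0 and 0.238 in uaf-1(n4588); rbm-5(n5119), and 0.306, 0 and 0.326 in uaf-1(n4588); rbm-5(n5132). It was 1 in all libraries of both rbm-5 single mutants and 0.696, 1 and 1 in wild type. The libraries with uaf-1(n4588) therefore all lay below the others. Inclusion fell by 5.86 on the log2 scale (SE 0.435, limma adjusted p = 2.16e-06).

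The longer let-653 exon was retained more often. Its share was 0.347, 0.558 and 0.450 in uaf-1(n4588), 0.617, 0.598 and 0.538 in uaf-1(n4588); rbm-5(n5119), and 0.520, 0.505 and 0.567 in uaf-1(n4588); rbm-5(n5132). It was 1 in both rbm-5 single mutants and 0.797, 1 and 1 in wild type. Here too no library with uaf-1(n4588) reached the lowest of the others. Inclusion fell by 4.03 (SE 0.337, limma adjusted p = 4.06e-06). The skipped form that both exons share was at 9.02 to 22.7 FPKM in every library with uaf-1(n4588). It was listed at 0 in every library without it except wild-type replicate 1, at 6.44 FPKM.

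A 147-base exon of tnt-3, one of the troponin T genes of striated muscle, lies at bases 7938516 to 7938662 of chromosome X on the minus strand. Its share was 0.146, 0 and 0 in uaf-1(n4588) and 0 in all 6 libraries of both double mutants. It was 0.141, 0.476 and 0.671 in rbm-5(n5119), 0.614, 0.666 and 0.647 in rbm-5(n5132), and 0.594, 0.600 and 0.610 in wild type. The groups overlapped by a single library, rbm-5(n5119) replicate 1. Inclusion fell by 5.59 (SE 0.527, limma adjusted p = 1.58e-05). The other tested exons of tnt-3 did not pass the test: one of 96 bases had a share of 1 in every library except rbm-5(n5119) replicate 2 (log2 difference 0.11, adjusted p = 0.970), and one of 2502 bases, coding in part, had shares of 0.0469 to 0.190 with uaf-1(n4588) and 0 to 0.141 without it (log2 difference 0.48, adjusted p = 0.800).

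Of the remaining exons with lower inclusion, one of 39 bases in jmjd-1.2, a histone demethylase gene, was listed at 0 in all 9 libraries with uaf-1(n4588). Its share was 0.210, 0 and 0 in rbm-5(n5119), 0.234, 0.118 and 0.104 in rbm-5(n5132), and 0.198, 0.127 and 0.132 in wild type. It was a minor form everywhere, and rbm-5(n5119) overlapped the mutant libraries. Inclusion fell by 2.83 (SE 0.470, limma adjusted p = 0.00264).

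A 423-base exon of F49E2.5 had shares of 0.282, 0 and 0 in uaf-1(n4588), 0, 0 and 0 in uaf-1(n4588); rbm-5(n5119), and 0, 0.312 and 0.296 in uaf-1(n4588); rbm-5(n5132). Without uaf-1(n4588) the shares were 0.572 and 0.501 in rbm-5(n5119), 1 and 1 in rbm-5(n5132), and 0.560, 0.629 and 0.662 in wild type. Both forms were at 0 in 1 library of each rbm-5 single mutant, which the fit dropped. Among the libraries with a value the groups did not overlap. The same exon was also listed with another downstream junction in wild-type replicate 1 alone, a separate event with a share of 0. Inclusion fell by 3.96 (SE 0.647, limma adjusted p = 0.00368).

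A further exon with lower inclusion was that of gpaa-1, a subunit of the GPI transamidase that attaches lipid anchors to surface proteins. Its 159-base exon had shares of 0.587, 0.705 and 0.628 in uaf-1(n4588), 0.577, 0.673 and 0.663 in uaf-1(n4588); rbm-5(n5119), and 0.562, 0.679 and 0.609 in uaf-1(n4588); rbm-5(n5132). They were 0.696 and 0.808 in rbm-5(n5119), where 1 library had no entry, 0.762, 0.880 and 0.827 in rbm-5(n5132), and 0.732, 0.828 and 0.805 in wild type. In uaf-1(n4588) the median was lower (0.628 against 0.806 without the mutation), but the highest mutant library overlapped the lowest of the others. Inclusion fell by 1.14 (SE 0.263, limma adjusted p = 0.0385). The call was lost in 11 of the 16 fits that left out 1 library (log2 difference -1.24 to -1.04 over the 16, adjusted p up to 0.0859).

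**Figure D4:**
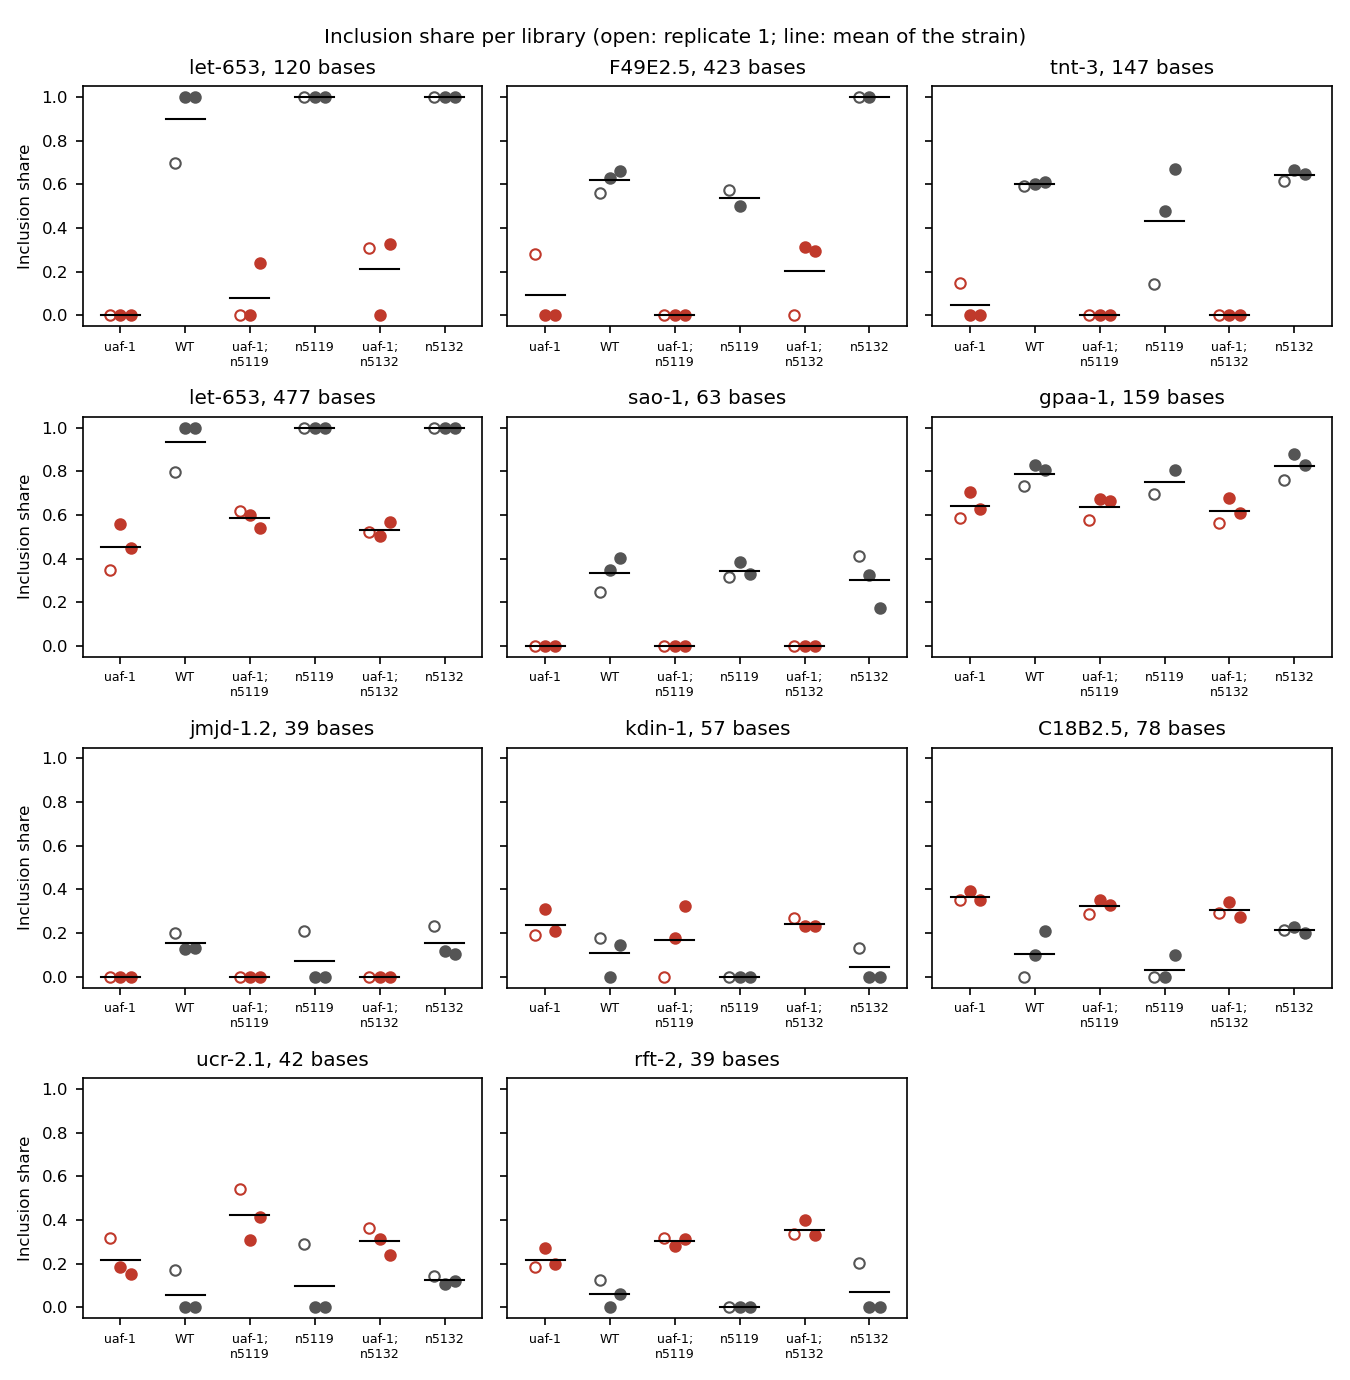
Inclusion share (y axis, 0 to 1) in each library of the 6 strains (x axis) for the 11 called exons whose mean share differed by 0.1 or more between libraries with uaf-1(n4588) (red) and without it (grey); each pair of strains has the uaf-1(n4588) strain on the left, open circles are replicate 1 libraries and lines are strain means. For sao-1 all red points are at 0.

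Exons called with a higher share in strains with uaf-1(n4588) were 39 to 78 bases long and minor forms in wild type. So were the lowered exons of jmjd-1.2 and sao-1, and short in-frame exons had low shares in general. A 39-base exon of rft-2, a riboflavin transporter gene, lies at bases 4447028 to 4447066 of chromosome V on the minus strand and codes for 13 amino acids. Its share was 0.185, 0.274 and 0.197 in uaf-1(n4588), 0.317, 0.279 and 0.316 in uaf-1(n4588); rbm-5(n5119), and 0.337, 0.400 and 0.330 in uaf-1(n4588); rbm-5(n5132). It was 0 in all 3 libraries of rbm-5(n5119), 0.205, 0 and 0 in rbm-5(n5132), and 0.127, 0 and 0.0606 in wild type. The groups overlapped through 1 library of rbm-5(n5132). Inclusion rose by 2.48 (SE 0.373, limma adjusted p = 0.00155).

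A 42-base exon of ucr-2.1, a core protein of mitochondrial complex III, had shares of 0.319, 0.184 and 0.153 in uaf-1(n4588), 0.544, 0.309 and 0.416 in uaf-1(n4588); rbm-5(n5119), and 0.365, 0.315 and 0.239 in uaf-1(n4588); rbm-5(n5132). Without uaf-1(n4588) it ranged from 0 to 0.291 (median 0.108) and was 0 in 4 of 9 libraries. The groups overlapped. Inclusion rose by 3.13 (SE 0.765, limma adjusted p = 0.0493), a call that was lost in 16 of 18 fits that left out 1 library (log2 difference 2.82 to 3.72, adjusted p up to 0.109). It held without replicate 1 of wild type or of rbm-5(n5119), and without all 6 replicate 1 libraries (log2 difference 3.97, adjusted p = 6.3e-05).

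A 78-base exon of C18B2.5 had shares of 0.352, 0.392 and 0.352 in uaf-1(n4588) and of 0.274 to 0.353 in the double mutants. Its shares were 0, 0 and 0.0976 in rbm-5(n5119), 0.214, 0.228 and 0.202 in rbm-5(n5132), and 0, 0.0971 and 0.210 in wild type. All libraries with uaf-1(n4588) were above all others. Inclusion rose by 2.14 (SE 0.495, limma adjusted p = 0.0347), and without the replicate 1 libraries the difference was 1.60 and no longer called (adjusted p = 0.181). It was also lost in 14 of 18 fits that left out 1 library (log2 difference 1.77 to 2.47), and held without any one wild-type library or rbm-5(n5119) replicate 3.

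A 57-base exon of kdin-1, the worm homologue of the neuronal scaffold KIDINS220, had shares of 0 to 0.324 (median 0.230) with uaf-1(n4588), where 1 of 9 libraries was at 0. Without the mutation they were 0 to 0.175 (median 0), with 6 of 9 libraries at 0. The groups overlapped. Inclusion rose by 1.68 (SE 0.404, limma adjusted p = 0.0441), and this call was lost in 15 of 18 fits that left out 1 library (log2 difference 1.47 to 1.95), all but those without replicate 1 of wild type, rbm-5(n5132) or uaf-1(n4588); rbm-5(n5119). It was also lost with the replicate number as a block (adjusted p = 0.0767) and on the plain share (adjusted p = 0.0523).

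For 2 of the 13 called exons it was the level of the gene that moved, with little or no shift in share. A 21-base exon of pcyt-2.1, a gene of phosphatidylethanolamine synthesis, was listed at 0 in all 18 libraries. Its skipped form was at 17.98 to 30.1 FPKM with uaf-1(n4588), against 32.01 to 64.3 FPKM without it, and these ranges do not overlap. The log2 ratio of 1.101 (limma adjusted p = 0.00663) is that fall in level with an added 1 FPKM, and on the plain share the difference was 0. The summed level fell by 1.101 (SE 0.156, limma adjusted p = 0.00233).

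A 762-base exon of Y53F4B.62 was included in nearly every transcript, with shares of 0.846 to 1 with uaf-1(n4588) and 1 without it. Its included form was at 3.56 to 7.54 FPKM with uaf-1(n4588), against 11.9 to 24.6 FPKM without it. Those ranges do not overlap. The summed level fell by 1.26 (SE 0.174, limma adjusted p = 0.00233), and the log2 ratio by 1.56 (SE 0.255, limma adjusted p = 0.00233). On the plain share the exon was not called (adjusted p = 0.570), nor on the log2 ratio without the replicate 1 libraries (-1.59, adjusted p = 0.0615). Libraries of whole embryos cannot tell fewer cells that express a gene from less RNA per cell. The summed level of the other 11 called exons did not pass the test.

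Comparisons within single rbm-5 backgrounds called fewer exons. Against wild type, 4 of 658 in-frame exons tested were called in uaf-1(n4588), all lower, and 47 had an unadjusted p under 0.05. Of all events 0.475% were called there, 0.136% higher and 0.339% lower. Against rbm-5(n5119), 4 of 641 were called in uaf-1(n4588); rbm-5(n5119), all lower, with 39 unadjusted, and of all events 0.419% were called (0.105% higher, 0.315% lower). Against rbm-5(n5132), 4 of 658 were called in uaf-1(n4588); rbm-5(n5132), all lower, with 53 unadjusted, and of all events 0.267% were called (0.10% higher, 0.167% lower). Each time the 4 called exons were the 2 of let-653 and those of sao-1 and tnt-3. The unadjusted counts were 7.1%, 6.1% and 8.1% of the in-frame exons tested. Of all events tested, 6.6%, 5.8% and 7.2% had an unadjusted p under 0.05. The log2 differences for sao-1 were -5.24, -5.98 and -5.53 in these 3 comparisons, and those for tnt-3 were -5.40, -4.89 and -6.48. The short let-653 exon gave -6.32, -6.41 and -4.84, and the long one -3.85, -4.18 and -4.07. The tnt-3 call against wild type was lost without wild-type replicate 3 (adjusted p = 0.0529) and without uaf-1(n4588) replicate 2 or 3 (adjusted p = 0.0641 and 0.0597). In the rbm-5(n5119) background it was lost without replicate 2 or 3 of either strain (adjusted p = 0.0830 to 0.102), with the replicate number as a block (adjusted p = 0.0522) and on the plain share (adjusted p = 0.0529). With only the strains of a contrast in the fit, tnt-3 (adjusted p = 0.175) and the long let-653 exon (adjusted p = 0.282) were not called against wild type, tnt-3 was not called in the rbm-5(n5119) background (adjusted p = 0.246), and the short let-653 exon was not called in the rbm-5(n5132) background (adjusted p = 0.0692). In rbm-5(n5132) the short let-653 exon was not called without the replicate 1 libraries (log2 difference -5.15, adjusted p = 0.0987).

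More in-frame exons were called for uaf-1(n4588) when the 6 replicate 1 libraries were left out of the fit, which leaves 2 libraries per strain. Then 11 in-frame exons were called against wild type (1.21% of all events), 10 in the rbm-5(n5119) background (1.12%) and 6 in the rbm-5(n5132) background (0.664%), of which 4, 4 and 3 were also called with all libraries. In the average over backgrounds 15 were called (2.39% of all events), 9 of them shared with the 13. Over splicing events of all kinds, 29, 26 and 16 were called within the 3 backgrounds, in place of 14, 12 and 8. In the average it was 47 of 1964 events, in place of 52 of 2371. F49E2.5 and gpaa-1 were not tested in that average, because a strain had too few values.

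An exon gained in all 4 of these comparisons was one of 66 bases in R02F11.3. Its share was 1 in every replicate 2 and 3 library with uaf-1(n4588) and 0.554 to 0.843 in those without it. The replicate 1 libraries that were left out overlapped. They were at 0.535 in uaf-1(n4588), 0.729 in uaf-1(n4588); rbm-5(n5119) and 1 in uaf-1(n4588); rbm-5(n5132). Without uaf-1(n4588) they were at 1 in wild type, 0.366 in rbm-5(n5119) and 1 in rbm-5(n5132). The averaged difference of this exon was 3.37 (limma adjusted p = 0.000866), against 1.95 (adjusted p = 0.404) with all 18 libraries. A 24-base exon of efk-1, the kinase of elongation factor eEF2, was gained in the average, at 2.65 (adjusted p = 0.00261) without replicate 1 and 1.92 (adjusted p = 0.0779) with it, and in the rbm-5(n5119) background (5.25, adjusted p = 0.00234). An 81-base exon of mrp-5, a heme exporter gene, was gained in the average (1.64, adjusted p = 0.00919) and in the rbm-5(n5119) background (5.15, adjusted p = 0.000757). Its share was 1 in every library except rbm-5(n5119) replicates 2 and 3, at 0.744 and 0.604. A 45-base exon of eor-2 was gained in the same comparisons (1.12, adjusted p = 0.0471, and 3.48, adjusted p = 0.00391). It was at 0 except in replicates 2 and 3 of uaf-1(n4588); rbm-5(n5119), at 0.264 and 0.177, and in replicate 1 of rbm-5(n5132), at 0.198. These calls thus rest on few libraries.

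The other gains without replicate 1 were in 1 to 2 comparisons each. Of exons already called in the average, those of jmjd-1.2 (-3.28, limma adjusted p = 0.00595), F49E2.5 (-4.03, adjusted p = 0.0294) and ucr-2.1 (4.61, adjusted p = 0.00113) were then also called against wild type. In the rbm-5(n5119) background rft-2 (3.14, adjusted p = 0.0186) and ucr-2.1 (5.80, adjusted p = 0.000532) were gained, and in the rbm-5(n5132) background rft-2 (3.73, adjusted p = 0.0137) and jmjd-1.2 (-2.90, adjusted p = 0.0137). New against wild type were a 69-base exon of fbn-1 (4.67, adjusted p = 0.0359), a 177-base exon of maph-1.1 (2.93, adjusted p = 0.0331) and the efa-6 exon described below. The share of the fbn-1 exon was 0 in wild type and 0, 0.508 and 0.152 in uaf-1(n4588). In replicates 2 and 3 of rbm-5(n5119) it was 0.256 and 0.183, and in those of uaf-1(n4588); rbm-5(n5119) it was 0, the opposite direction. New in the average were a 60-base exon of C14A4.12 (1.89, adjusted p = 0.0243) and the efa-6 exon.

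Almost none of these exons was called for the rbm-5 mutations by themselves, and exons that were not called were not shown to be unchanged. Against wild type, limma called 0 of 650 in rbm-5(n5119) and 0 of 662 in rbm-5(n5132), with 41 and 34 at an unadjusted p under 0.05. The percentage of all events called was 0 in both. The unadjusted counts were 6.3% and 5.1% of the in-frame exons tested, against 4.8% and 4.5% of all events. Averaged over both alleles and both uaf-1 genotypes, 1 of 585 in-frame exons was called, and it was the only event called among all 2371 (0.0422%). At an unadjusted p under 0.05 there were 34 (5.8%, against 5.5% of all events). Without the replicate 1 libraries, 4 in-frame exons were called in rbm-5(n5119) against wild type (0.463% of all events): efa-6, efk-1 (-4.07, adjusted p = 0.0168), jmjd-1.2 (-3.31, adjusted p = 0.00961) and mrp-5 (-4.997, adjusted p = 0.00237). In rbm-5(n5132) it was 1 (0.243% of all events), that of ucr-2.1 (3.97, limma adjusted p = 0.00582).

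That exon has 153 bases and lies in efa-6, at bases 12611800 to 12611952 of chromosome IV on the minus strand. EFA-6 is an exchange factor for Arf6 that limits microtubule growth at the cell cortex, and the exon codes for 51 amino acids. Its share was 0.613, 0.773 and 0.554 in rbm-5(n5119), 0.669, 0.828 and 0.845 in rbm-5(n5132), and 1 in all 3 wild-type libraries. Both alleles thus lay below wild type in every library. With uaf-1(n4588) the shares were 0.633, 0.608 and 0.497 in uaf-1(n4588); rbm-5(n5119), 0.717, 0.455 and 0.673 in uaf-1(n4588); rbm-5(n5132), and 1, 0.744 and 0.773 in uaf-1(n4588) alone. All 6 double-mutant libraries were below those 3.

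Averaged over alleles and uaf-1 genotypes, inclusion of the efa-6 exon fell by 3.16 (SE 0.477, limma adjusted p = 0.0251). Over the 12 rbm-5 mutant libraries the share ranged from 0.455 to 0.845 (median 0.651), against 0.744 to 1 (median 1) in the 6 libraries with wild-type rbm-5. The skipped form was at 8.63 to 31.5 FPKM in the mutants and listed at 0 in 4 of the other 6 libraries. The difference was -4.75 for rbm-5(n5119) against wild type (adjusted p = 0.0734) and -3.80 for rbm-5(n5132) (adjusted p = 0.224), and neither was called alone. The averaged call was lost without wild-type replicate 3 (log2 difference -3.05, adjusted p = 0.141). It was also lost without rbm-5(n5132) replicate 2, without any one library of uaf-1(n4588); rbm-5(n5119) and without replicate 2 or 3 of uaf-1(n4588); rbm-5(n5132) (adjusted p = 0.0508 to 0.0638). On the plain share it was not called (adjusted p = 0.109), nor without the replicate 1 libraries (log2 difference -2.80, adjusted p = 0.0731). Without those libraries efa-6 was called in rbm-5(n5119) against wild type (log2 difference -4.99, adjusted p = 0.0126). In the same fits efa-6 was also called in uaf-1(n4588) against wild type (-4.43, adjusted p = 0.0159) and in the uaf-1(n4588) average (-2.33, adjusted p = 0.0115). With all libraries these differences were -3.003 (adjusted p = 0.157) and -1.52 (adjusted p = 0.125), so inclusion of this exon was not shown to move with rbm-5 alone.

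**Figure D5:**
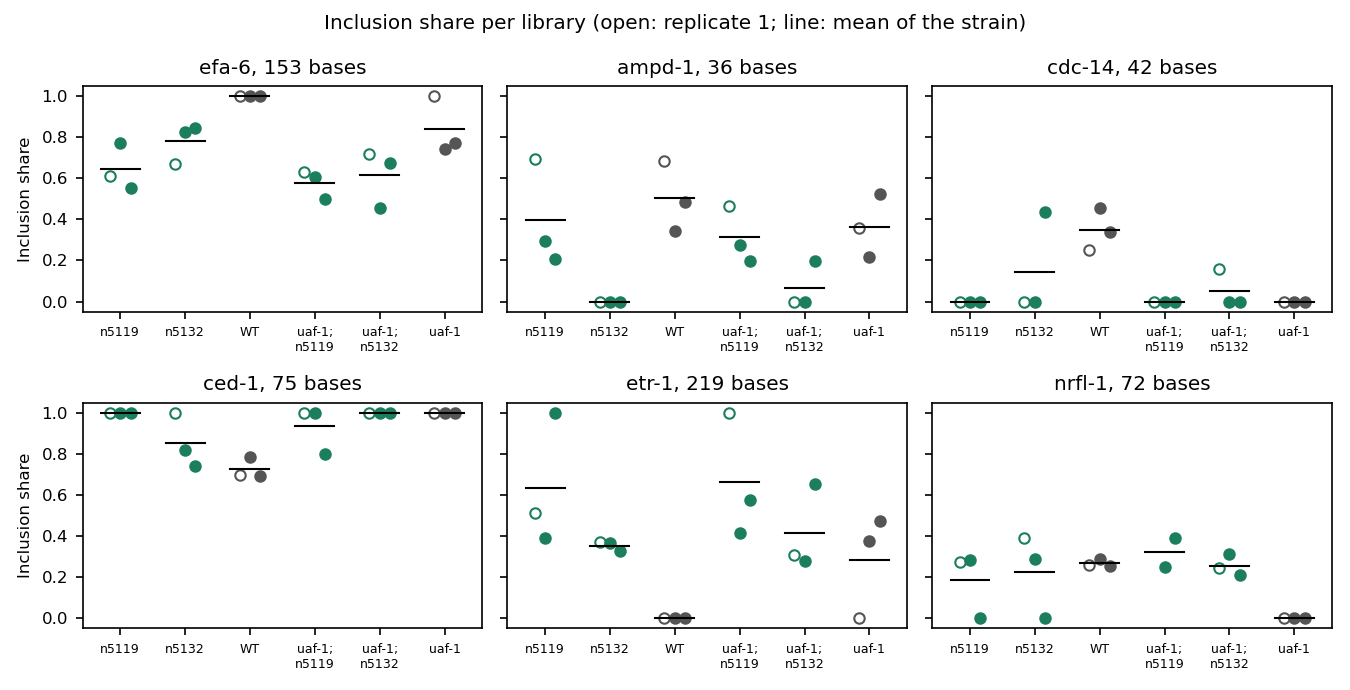
Inclusion share (y axis, 0 to 1) in each library of the 6 strains (x axis), rbm-5 mutants in green and strains with wild-type rbm-5 in grey, for efa-6 and for 5 exons that were not called; open circles are replicate 1 libraries and lines are strain means. All efa-6 points of the rbm-5 mutants lie at 0.845 or below.

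Exons with small unadjusted p-values in single rbm-5 comparisons are given as values only, since none was called. A 42-base exon of cdc-14, a cell cycle phosphatase gene, had shares of 0, 0 and 0 in rbm-5(n5119), 0, 0 and 0.435 in rbm-5(n5132) and 0.253, 0.458 and 0.339 in wild type (log2 difference -6.61 for rbm-5(n5119), limma adjusted p = 0.347). It was also 0 in uaf-1(n4588) and in all but 1 double-mutant library, so outside wild type a single library, of rbm-5(n5132), reached the range of wild type. A 75-base exon of ced-1, the engulfment receptor for dying cells, was at 1 in all 3 rbm-5(n5119) libraries and at 0.695, 0.785 and 0.692 in wild type (3.42, adjusted p = 0.347). In uaf-1(n4588) it was also at 1.

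A 36-base exon of ampd-1, the AMP deaminase gene, was listed at 0 in all 3 rbm-5(n5132) libraries, against 0.684, 0.346 and 0.484 in wild type (-5.28, limma adjusted p = 0.224). In rbm-5(n5119) its shares were 0.694, 0.295 and 0.208, which overlap those of wild type. In uaf-1(n4588); rbm-5(n5132) they were 0, 0 and 0.199, against 0.357, 0.216 and 0.524 in uaf-1(n4588) (-3.32, adjusted p = 0.836). A 219-base exon of etr-1, an RNA-binding protein of the CELF family, was at 0.511, 0.388 and 1 in rbm-5(n5119) and listed at 0 in wild type (7.38, adjusted p = 0.439). It was above 0 in the other strains too, at 0.371, 0.364 and 0.324 in rbm-5(n5132), at 0.279 to 1 in the 6 double-mutant libraries and at 0, 0.373 and 0.475 in uaf-1(n4588).

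Whether rbm-5 mutations alter the uaf-1(n4588) effect was addressed by the double mutants. Against uaf-1(n4588), limma called 0 of 684 in-frame exons in uaf-1(n4588); rbm-5(n5119) and 0 of 685 in uaf-1(n4588); rbm-5(n5132), with 25 and 29 at an unadjusted p under 0.05. Without the replicate 1 libraries the eor-2 exon was called in uaf-1(n4588); rbm-5(n5119) (3.49, limma adjusted p = 0.0115; 0.194% of all events). With all libraries the percentage of all events called was 0 and 0.0314. The unadjusted counts were 3.7% and 4.2% of the in-frame exons tested, against 3.7% and 4.9% of all events. The smallest p was that of a 123-base exon of ketn-1 in uaf-1(n4588); rbm-5(n5119) (4.16, limma adjusted p = 0.897). In uaf-1(n4588); rbm-5(n5132) it was that of the nrfl-1 exon described below (3.52, adjusted p = 0.836). The interaction, averaged over both alleles, called 0 of 585 in-frame exons and 0% of all events. At an unadjusted p under 0.05 it had 22 in-frame exons (3.8%, against 3.3% of all events). For sao-1 the double mutants differed from uaf-1(n4588) by -0.66 and -0.54, and all 9 libraries stayed at 0. For the short let-653 exon the differences were 0.96 (adjusted p = 0.996) and 2.17 (adjusted p = 0.836), and 3 of 6 double-mutant libraries had a share above 0.

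The exon with the smallest p in the interaction was one of 72 bases in nrfl-1, a PDZ scaffold of the NHERF family. It was listed at 0 in all 3 uaf-1(n4588) libraries. Its shares were 0.249 and 0.392 in uaf-1(n4588); rbm-5(n5119), with 1 library missing, 0.242, 0.310 and 0.211 in uaf-1(n4588); rbm-5(n5132), and 0.260, 0.288 and 0.256 in wild type. The libraries of both double mutants were thus all above those of uaf-1(n4588). The interaction of 4.55 (SE 1.21, unadjusted p = 0.00230) did not pass the adjustment (limma adjusted p = 0.990). It also draws on both rbm-5 single mutants, whose shares are not given here, so it is not the difference between the double mutants and uaf-1(n4588) alone.

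Host genes were also grouped by function. Of 35 tested exons in muscle and sarcomere genes, 0 were higher and 2 lower with uaf-1(n4588) averaged over backgrounds, those of tnt-3 and sao-1, of which sao-1 is not known as a sarcomere gene. The median log2 difference was 0.11, against 0.012 for all events tested. Of all events tested, 1.18% were called higher and 1.01% lower. A slo-1 exon of 66 bases, in a potassium channel gene, had 1.21 (adjusted p = 0.400). Of 28 exons in genes of the extracellular matrix, epidermis and adhesion, 0 were higher and 2 lower, both in let-653 (median 0.064). In the rbm-5 average, 1 of these 28 was lower, that of efa-6 (median -0.26, against 0.0072 for all events). It was the only call among all events there (0.0422%), and EFA-6 is the Arf6 exchange factor described above.

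None of 47 exons in genes of neuronal signalling and ion channels was called by limma in the uaf-1(n4588) average, with 5 at an unadjusted p under 0.05 (median -0.12). The smallest p there was that of a 27-base exon of unc-80, at 0 in 8 of 9 libraries with uaf-1(n4588) and at 0 to 0.416 without it (-0.90, adjusted p = 0.170). A 114-base exon of unc-43, the CaMKII gene, gave -2.58 (adjusted p = 0.293), and a 132-base exon of nlg-1, the neuroligin gene, -1.14 (adjusted p = 0.381). A 243-base exon of egl-8 went the other way, at 1.91 (limma adjusted p = 0.330). Of 9 exons in genes of RNA-binding and splicing factors, limma called 0, with 0 at an unadjusted p under 0.05 (median -0.088). Of 4 exons in metabolic enzyme and transporter genes, 2 were called as higher, those of rft-2 and pcyt-2.1 (median 0.49), against 1.18% of all events. The pcyt-2.1 value is the change in level described above. The lists were chosen with results of these data known and are no independent evidence of direction.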

How the data were processed

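The deposited values are FPKM per transcript form, 1 list per library, per the file headers. The submitters' processing notes name TopHat2 2.0.12, Bowtie2 and the assembly WBcel235. The assembler and the program that listed splicing events are not given in the sources used here, and no scaling between libraries is stated. Depth is unknown, so no counting interval or floor is given.

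A row with the exon and its partner without it were paired, and events were matched between libraries by chromosome, start, end, strand and pattern. A library with both forms at 0 was treated as missing. The log2 ratio used a pseudocount of 1 FPKM, which understates changes of weakly expressed forms. Where a form is at 0, the log2 difference depends on this pseudocount. Linear models were fitted in limma 3.58.1 (R 4.3.3) to all 18 libraries with 1 mean per strain and no covariate, for 10 contrasts, two-sided, with Benjamini-Hochberg adjustment over all events tested in a contrast and calls at an adjusted p under 0.05. Levels were tested as log2 of the summed FPKM of both forms plus 1, with an intensity trend. The procedure was tested on simulated data. No columns of per-sample values were left out (0).

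The members, lists and contrasts were chosen with earlier results of these data known. The exons named were drawn from those of let-653, tnt-3, sao-1 and rft-2, up to 12 called ones per contrast (1 per gene, by difference in share), the 5 smallest p-values where none was called, up to 4 per list, and up to 6 near an even share. Not all of them are described. Where none was called, ajm-1, Y64G10A.7, lea-1 and pezo-1 were left out for the rbm-5 single mutants. Likewise set-18, F07C6.4, T23E7.2, cccp-1, K07A12.8 and ZC247.2 were left out for the double mutants against uaf-1(n4588). For the interaction, set-18, ZC434.9 and C34F6.10 were left out. So were some exons of the lists and near an even share. The exons gained without the replicate 1 libraries (among them R02F11.3, efk-1, mrp-5 and eor-2) were chosen after their values were seen. Alternatives tried were other pseudocounts and FPKM minimums, the plain share, both forms at 0 kept, skipped exons only, the strains of the contrast only, the replicate number as a block, each library left out, and replicate 1 left out in every strain.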

Additional observations from a re-analysis of the deposited data

How the results depend on the processing

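Counts below are of called in-frame exons. On the plain share they were 7 for uaf-1(n4588) against wild type and 7 for uaf-1(n4588); rbm-5(n5119) against rbm-5(n5119), each against 4 on the log2 ratio, and 0 in the rbm-5 average, against 1. Over all events the counts on the plain share were 25, 18 and 0, against 14, 12 and 1 on the log2 ratio. With skipped exons only in the fit, rbm-5(n5119) against wild type gave 1, and with only the strains of the contrast both rbm-5 single mutants gave 1, in each case against 0. The first was the only call of its fit, and the other fits each called 2 events of all kinds. Without replicate 1 in every strain the counts were 11 and 10 in these uaf-1(n4588) comparisons, 4 in rbm-5(n5119) against wild type, 1 in rbm-5(n5132) against wild type, 1 in uaf-1(n4588); rbm-5(n5119) against uaf-1(n4588) and 0 in the rbm-5 average. Leaving out the 2 libraries with most entries at 0, an alternative chosen after seeing the data, gave 0 in the rbm-5 average. With a pseudocount of 0.1 the uaf-1(n4588) average gave 9 in place of 13: ucr-2.1, C18B2.5, kdin-1 and gpaa-1 were lost. Of all events 49 were then called, in place of 52.

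Leaving out each library in turn gave 3 to 5 for uaf-1(n4588) against wild type, 3 to 8 in the rbm-5(n5119) background (8 without rbm-5(n5119) replicate 1), 4 to 5 in the rbm-5(n5132) background and 9 to 14 in the uaf-1(n4588) average. It gave 0 to 4 for rbm-5(n5119) against wild type (4 without rbm-5(n5119) replicate 1), 0 to 2 for rbm-5(n5132), 0 to 1 for uaf-1(n4588); rbm-5(n5119) against uaf-1(n4588), 0 for the other double mutant, 0 to 2 in the rbm-5 average and 0 to 1 in the interaction. Over all events, in the same order, the uaf-1(n4588) counts were 8 to 17, 11 to 19, 9 to 13 and 45 to 55. Those that followed were 0 to 7, 0 to 5, 0 to 1, 0 to 2, 0 to 4 and 0 to 1. The direction turned in 3 exons that were not called, with ranges of -0.44 to 0.55 for the 96-base tnt-3 exon, -1.07 to 0.24 for a 99-base and -0.70 to 0.42 for a 69-base exon of mca-3, a plasma membrane calcium pump gene. For these 3 exons and for the counts above the cause was not tested.

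Restricted to exons with a share in all 18 libraries, the median share was 0.371 in frame and 0.726 frame-shifting, against 0.502 and 0.637 over all listed; the sets of exons differ by construction.

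The labels do not say what libraries with the same replicate number share, and not every pair of them correlated above 0.1, so they were not treated as paired. This rule is no test of a shared effect. Over 1889 events, deviations from the strain mean correlated at -0.139 to 0.197 (median 0.0313) between same-numbered libraries. Otherwise they correlated at -0.217 to 0.249 (median -0.0174). As a hint from the data, 12 of 18 libraries correlated best, on average, with those of their own number. With the replicate number as a block the counts were 4, 3 (without tnt-3) and 4 in the 3 uaf-1(n4588) comparisons, 14 in their average (12 shared with the 13), 1 in the rbm-5 average and 0 in the other 5 contrasts. Over all events they were 16, 14, 8, 57 and 2, and at most 1 in the other contrasts. Depth cannot be judged from FPKM, and forms at 0 limit every share near 0 or 1.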

Other observations

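Some in-frame skipped exons were listed in only one class of libraries, where no share can be compared. In 8 exons (0.304% of the in-frame events) the event was listed in 6 or more of the 9 libraries with uaf-1(n4588) and in 0 of the 9 without it. In 2 exons (0.076%) the reverse held. Among frame-shifting exons there were 15 (0.580%) and 1 (0.0387%), so such listing was not particular to the in-frame exons. The share over splicing events of all kinds was not computed. The 93-base exon of mfsd-12, a gene of the major facilitator superfamily on the X chromosome, was listed in all 9 libraries with uaf-1(n4588), at shares of 0.469 to 0.853 and 1.66 to 9.50 FPKM for the form with the exon. The exon itself was annotated and its skipping was not. The others were exons of Y57A10A.2 (8 libraries), ugt-53 and the potassium channel gene irk-1 (7 each), dhs-4, mvk-1 and Y11D7A.5 (6 each), and a 54-base exon at bases 13828270 to 13828323 of chromosome IV (8 libraries) whose host gene is uncertain.

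The 2 exons listed without uaf-1(n4588) alone were those of Y57G11C.31 (6 libraries, shares 0.659 to 0.823) and C13E3.1 (7 libraries, shares 0.507 to 0.743). How an event came to be listed in a library is not given in the sources used here, and how far listing depends on depth was not tested. Libraries with uaf-1(n4588) also listed more skipped exons in all, as given for both frame classes, and no test was made of these listings.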
